A study of Homo sapiens with 9 samples.

Results

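Matricellular proteins are secreted into the extracellular matrix, where they act mainly as adaptors between matrix, growth factors and cell-surface receptors and less as structural scaffold. Thrombospondins and tenascins belong to this class, and both are known to be induced in wounds and in tumour stroma, where they change how firmly cells attach. The genes were taken from the count table by symbol: the thrombospondins THBS1, THBS2 and THBS3, tenascin C (TNC), the osteonectin-type proteins SPARC and SPOCK1, periostin (POSTN) and its relative TGFBI, fibronectin (FN1) and the growth factor binding protein IGFBP3. All 10 were found among the 56809 genes of the table. The set was chosen by the fold changes of THBS1 and TNC in earlier results of these data, THBS1 for a difference between the hairpins and TNC for opposite changes, so these genes are described here with fold changes and standard errors and without a test.

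The data were bulk RNA-sequencing libraries of MDA-MB-468, an established human breast adenocarcinoma line. Cells carried the empty lentiviral hairpin vector pSicoR (control) or this vector carrying shLMO2-1 or shLMO2-2, hairpins whose names point to LMO2, a LIM-domain bridge between transcription factors on DNA. Each of the 3 groups had 3 libraries, from 200000 harvested cells. Whether the libraries of a group came from separate infections or cultures is not given in the labels, so p-values measure only the spread between these libraries, which may be technical.

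Library totals lay between 15494486 and 23069456 counts, and the shLMO2-2 libraries were the deepest. LMO2 was found at 4, 35 and 19 counts in control replicates 1 to 3, at 2, 1 and 6 counts in shLMO2-1 and at 1, 4 and 3 counts in shLMO2-2, so control replicate 1 overlapped shLMO2-1 and, at 0.232 CPM, lay just above the highest shLMO2-2 library, at 0.186 CPM. The LMO2 fall passed in shLMO2-2 (log2 fold change -3.02, SE 0.819, adjusted p = 0.0441, edgeR) and the value in shLMO2-1 did not (-2.44, SE 0.813, adjusted p = 0.0907). Without control replicate 1 both passed (-3.48, adjusted p = 0.0144, and -2.90, adjusted p = 0.0268, edgeR). The shLMO2-2 call did not pass in 9 of 18 alternatives, among them without control replicate 2 (0.138) or 3 (0.103), without shLMO2-1 replicate 1 (0.0620) or 2 (0.0625), and without shLMO2-2 replicate 1 (0.132), 2 (0.102) or 3 (0.127). That library also stood farthest from the others on the first principal component, at -42.6 against -20.6 and -18.2 for the other controls, and the results for THBS1, TNC, FN1 and TGFBI are given with and without it where it moves them. All 8 epithelial markers examined (among them KRT8, KRT18, EPCAM and CDH1) were above 1 CPM on average in every group. Their sum was 14634 to 15048 CPM in control and higher in all hairpin libraries, at 16715 to 17844 CPM for shLMO2-1 and 16194 to 18174 CPM for shLMO2-2. EGFR was the largest part, averaging 5471, 7507 and 5985 CPM in control, shLMO2-1 and shLMO2-2. The markers did not move together: EPCAM and CDH1 averaged lower in both hairpins, and EGFR, KRT7, KRT8, KRT18 and KRT19 higher. Called epithelial markers were KRT8 and EGFR (higher) and KRT5 (lower) in shLMO2-1, KRT8, KRT18 and KRT19 (higher) in shLMO2-2, and KRT5 (higher) between the hairpins. CPM are normalised counts, parts per 1000000 of the library total after TMM adjustment. The 8 fibroblast markers, of interest because fibroblasts are the usual source of matricellular proteins in tumours, summed to 11.5 to 15.5 CPM in control, 13.8 to 17.7 in shLMO2-1 and 15.3 to 17.0 in shLMO2-2. Nearly all of this was COL1A1, and COL3A1 and LUM were at 0 in every library. The 6 endothelial markers summed to 7.18 to 13.9, 13.5 to 19.4 and 8.58 to 11.2 CPM in control, shLMO2-1 and shLMO2-2, with EMCN at 0 in every library. The 5 haematopoietic markers summed to 1.48 to 2.15, 3.16 to 5.74 and 3.95 to 4.52 CPM, with CD3E and HBB at 0 in every library and CD14 called higher in both hairpins and CD68 in shLMO2-1. The epithelial and haematopoietic sums of control lay below those of both hairpins. Endothelial sums of control overlapped both hairpins and lay apart only between the hairpins, and no endothelial marker was called. The part of these sums in the results below was not tested.

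The sequences upstream of the transcription start are shown for THBS1 and TNC, which stood apart between the hairpins, for FN1, and for IGFBP3, whose level overlapped between all groups. Each lies within the 250 bases before the RefSeq start (GRCh38.p14), 5′ to 3′ on the gene's strand, and bases that GENCODE 29 places in an exon of the gene were left out. Shown are chr15:39580829-39581078 (plus strand, 250 bases) for THBS1, chr9:115118258-115118407 (minus strand, 150 bases) for TNC, chr2:215436173-215436318 (minus strand, 146 bases) for FN1 and chr7:45921275-45921522 (minus strand, 248 bases) for IGFBP3. Motifs searched on either strand are in capitals. They were the GC box, spelled GGGCGG, the CCAAT box, the E-box, spelled CANNTG, the TATA box, spelled TATAAA, the AP-1 site, spelled TGANTCA, and the cyclic AMP response element, spelled TGACGTCA.
THBS1: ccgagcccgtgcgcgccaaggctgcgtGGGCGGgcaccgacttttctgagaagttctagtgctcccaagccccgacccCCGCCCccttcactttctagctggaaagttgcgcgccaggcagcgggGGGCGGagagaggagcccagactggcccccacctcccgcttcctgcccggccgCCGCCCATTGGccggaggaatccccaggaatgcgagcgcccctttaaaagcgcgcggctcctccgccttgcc
TNC: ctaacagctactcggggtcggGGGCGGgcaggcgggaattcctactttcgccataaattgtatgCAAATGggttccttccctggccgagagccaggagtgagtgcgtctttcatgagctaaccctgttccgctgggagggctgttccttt
FN1: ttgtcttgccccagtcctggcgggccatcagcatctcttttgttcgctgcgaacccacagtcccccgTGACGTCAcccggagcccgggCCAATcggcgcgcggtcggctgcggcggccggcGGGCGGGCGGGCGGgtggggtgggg
IGFBP3: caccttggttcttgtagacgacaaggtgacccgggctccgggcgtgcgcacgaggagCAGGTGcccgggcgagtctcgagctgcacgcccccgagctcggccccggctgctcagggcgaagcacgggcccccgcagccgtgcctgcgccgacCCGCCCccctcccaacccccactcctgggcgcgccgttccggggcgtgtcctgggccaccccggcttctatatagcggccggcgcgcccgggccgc

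THBS1 held 4 GC boxes and 1 CCAAT box, which adjoins the last of them. FN1 showed 3 overlapping GC boxes, 1 CCAAT box and 1 cyclic AMP response element, and 6 GC boxes over its full 250 bases. TNC showed 1 GC box and 1 E-box, and 2 E-boxes over its full 250 bases. IGFBP3 showed 1 GC box and 1 E-box, and 2 GC boxes over its full 250 bases. The GC content of the full windows was 54.8% for TNC, 69.6% for THBS1, 76.0% for IGFBP3 and 76.4% for FN1. Among 35116 RefSeq windows of 250 bases, 42.6% held a GC box, 32.0% a CCAAT box, 61.8% an E-box, 10.7% a TATA box, 6.57% an AP-1 site and 1.65% a cyclic AMP response element. Of the 9 genes with an entry, THBS2 and POSTN had a TATA box in the full window. SPOCK1 had no entry. A match describes the letters only.

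Of the 10 genes, 7 passed the filter on low counts and were tested, and THBS2, SPOCK1 and POSTN did not pass. Levels of different genes were compared as CPM per kilobase of annotated exon (GENCODE 29). By this length-scaled level IGFBP3 was highest, with group means of 74.3 ± 10.3 (control), 74.3 ± 10.5 (shLMO2-1) and 81.6 ± 9.36 (shLMO2-2; SD, n = 3). THBS1 came next, at 58.4 ± 4.12, 62.0 ± 3.96 and 24.9 ± 2.94, and its highest library lay above the lowest of IGFBP3, although IGFBP3 exceeded THBS1 within each of the 9 libraries. Averaged over all libraries, IGFBP3 ranked 541 and THBS1 ranked 982 among the 14709 tested genes. TNC followed at 8.24 ± 2.01, 12.2 ± 0.637 and 5.34 ± 0.138 and did not overlap THBS1, then FN1, at 3.24 ± 0.484, 5.57 ± 0.286 and 3.92 ± 0.343. TGFBI was at 2.82 ± 0.0828, 2.43 ± 0.290 and 2.13 ± 0.178, and THBS3 at 1.75 ± 0.244, 1.64 ± 0.315 and 1.95 ± 0.0571. TNC and FN1, FN1 and TGFBI, and TGFBI and THBS3 overlapped as neighbours over the 9 libraries. SPARC, far below and apart from THBS3, was at 0.132 ± 0.0602, 0.152 ± 0.0814 and 0.113 ± 0.0655. The choice of gene length bears on this order: with the median length of coding transcripts, which is 1103.5 bases for TGFBI beside 7810 bases of annotated exon, 5 of the 10 genes kept their place.

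**Figure D1:**
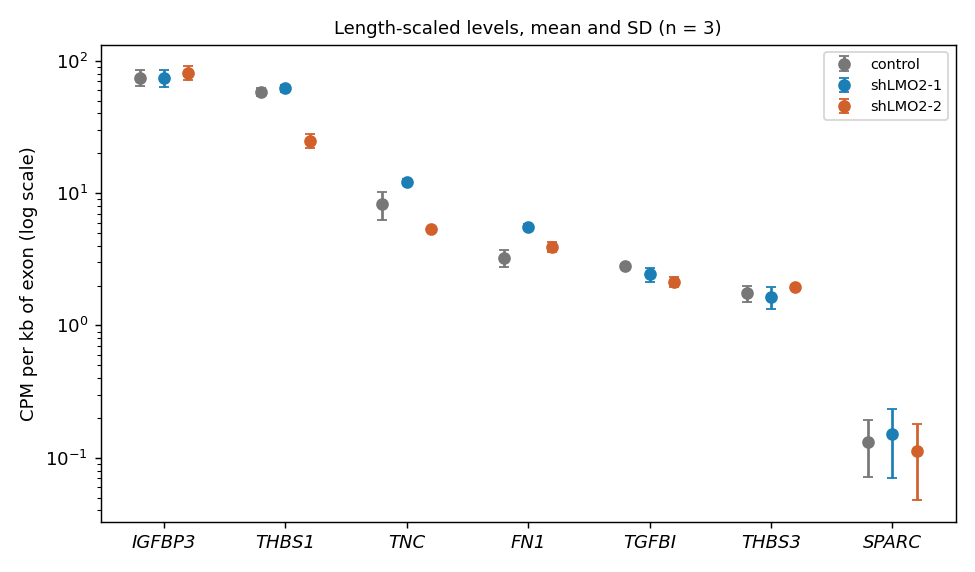
Length-scaled level (CPM per kilobase of exon, log axis) of the 7 tested genes in control, shLMO2-1 and shLMO2-2 libraries; points are means and bars SD (n = 3). IGFBP3 and THBS1 lie above the other genes, and THBS1 in shLMO2-2, at 24.9, is the lowest of its 3 groups.

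THBS1 encodes thrombospondin 1, a trimeric glycoprotein known for blocking angiogenesis through CD36 and CD47 and for releasing TGF-beta from its latent complex. The gene (ENSG00000137801.10) lies on chromosome 15 at 39581079–39599466 on the plus strand (GENCODE 29, GRCh38). Its level was 567, 493 and 543 CPM in control replicates 1 to 3, 529, 601 and 572 CPM in shLMO2-1, and 198, 251 and 236 CPM in shLMO2-2. Control and shLMO2-1 libraries overlapped, and all 3 shLMO2-2 libraries lay below every other library. The log2 fold change was 0.09 (SE 0.089) in shLMO2-1 against control and -1.23 (SE 0.0906) in shLMO2-2 against control. Between the hairpins it was -1.31 (SE 0.0908), which puts shLMO2-2 at 0.402 of the shLMO2-1 level. In bulk RNA, fewer cells expressing a gene and less RNA per cell cannot be told apart.

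Leaving out each library in turn gave THBS1 values of -1.31 to -1.15 for shLMO2-2 against control and -1.39 to -1.23 between the hairpins. These ranges are a description only, as THBS1 was picked from the same data. Without control replicate 1 the value against control was -1.19. FSIP1, on the opposite strand across THBS1, was found at 5 to 33 counts per library and the annotated RNAs AC037198.1 and AC037198.2 at 0 to 4 counts, where THBS1 had 4561 counts or more. The use of strand in the counting is not known. For scale, shLMO2-2 lay wholly below control in 14.5% of all tested genes and wholly below shLMO2-1 in 9.12%. THBS1 was picked for this contrast, so nothing is read from these shares.

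Within the 10 genes, the share of THBS1 was lower in shLMO2-2. The 10 genes together summed to 986 to 1081 CPM (control), 1072 to 1192 CPM (shLMO2-1) and 663 to 791 CPM (shLMO2-2). THBS1 made up 50.1% to 53.7% of this sum in control, 48.0% to 50.9% in shLMO2-1 and 29.9% to 31.7% in shLMO2-2. IGFBP3 was the larger share in all 3 shLMO2-2 libraries, at 49.0% to 51.7%, against 27.5% to 35.6% in control. These shares are of counts, so long transcripts weigh more. A lower THBS1 lowers the sum and raises the shares of the other genes. IGFBP3 itself was not called in any comparison. THBS1 was picked from the same data, so the shares restate its fall and add no support.

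THBS2 encodes thrombospondin 2, a trimeric relative of THBS1 found mainly in stromal cells. It was at 0, 4 and 4 counts in control replicates 1 to 3, at 0, 1 and 0 in shLMO2-1 and at 0, 1 and 0 in shLMO2-2, too few for a test. THBS3 belongs to the pentameric subgroup of thrombospondins. It was at 9.10, 8.30 and 6.87 CPM in control, 8.83, 5.98 and 7.91 CPM in shLMO2-1, and 8.70, 9.14 and 9.16 CPM in shLMO2-2, and all groups overlapped. For THBS3 the log2 fold changes were -0.09 (SE 0.165, adjusted p = 0.783, edgeR) in shLMO2-1 and 0.15 (SE 0.161, adjusted p = 0.599) in shLMO2-2 against control. Between the hairpins it was 0.25 (SE 0.162, adjusted p = 0.680, edgeR), with a 95% interval of -0.15 to 0.65. The interval leaves out a fall of the size seen in THBS1. THBS3 overlaps MTX1 on the opposite strand, which had 44.9 ± 5.04 CPM (control), 44.9 ± 3.69 CPM (shLMO2-1) and 50.5 ± 2.97 CPM (shLMO2-2; SD, n = 3), so its counts are uncertain if the counting did not use strand.

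TNC encodes tenascin C, a hexameric glycoprotein that weakens adhesion of cells to fibronectin and is deposited at invasive tumour fronts. The gene (ENSG00000041982.15) lies on chromosome 9 at 115019578–115118257 on the minus strand. It was at 102, 66.4 and 70.2 CPM in control replicates 1 to 3, at 122, 120 and 111 CPM in shLMO2-1, and at 53.0, 50.9 and 50.5 CPM in shLMO2-2. The 3 groups did not overlap, with shLMO2-1 above and shLMO2-2 below the controls. The log2 fold change was 0.57 (SE 0.133) in shLMO2-1 and -0.62 (SE 0.134) in shLMO2-2 against control, and -1.19 (SE 0.135) between the hairpins. DEC1, on the opposite strand, was found at 0 to 8 counts per library.

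Control replicate 1 held the highest TNC level of the controls. Without it the log2 fold change was 0.78 in shLMO2-1 and -0.41 in shLMO2-2 against control, so both values were higher by a similar amount, which put shLMO2-1 farther from control and shLMO2-2 nearer to it. The value between the hairpins does not use the controls' level and stayed at -1.20 without it. Over all 9 fits that left out a library, it ran from -1.24 to -1.17. Over all tested genes, shLMO2-1 lay wholly above control in 14%, and nothing is read from this share for TNC.

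FN1 encodes fibronectin, the adhesive glycoprotein that integrins assemble into fibrils and to which tenascin C binds. The gene (ENSG00000115414.18) lies on chromosome 2 at 215360440–215436172 on the minus strand and overlaps no other annotated gene. Its level was 65.5, 49.3 and 53.7 CPM in control replicates 1 to 3, 99.9, 98.7 and 90.8 CPM in shLMO2-1, and 62.4, 74.2 and 66.9 CPM in shLMO2-2. All shLMO2-1 libraries lay above every other library, and shLMO2-2 overlapped control. Over all tested genes, shLMO2-1 lay wholly above control in 14%, and shLMO2-2 wholly below shLMO2-1 in 9.12%. FN1 rose in shLMO2-1 by 0.78 on the log2 scale (SE 0.105, adjusted p = 0.00158, edgeR), a 1.72-fold change. Of all tested genes, 8.42% were called in this comparison, 4.54% as higher and 3.88% as lower.

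In shLMO2-2 the FN1 value against control was 0.27 (SE 0.105, adjusted p = 0.131, edgeR), and between the hairpins it was -0.51 (SE 0.104, adjusted p = 0.0557), neither past the threshold. Both lay near it. Against control, FN1 in shLMO2-2 passed without control replicate 1 (0.39, adjusted p = 0.0216) and with no filter on low counts (adjusted p = 0.0407). Between the hairpins it passed under DESeq2 (-0.51, adjusted p = 0.00104), with no filter on low counts (6.30e-05), with only the hairpin groups in the fit (0.0129), and in edgeR without control replicate 1 (adjusted p = 0.00685) or control replicate 2 (0.0398). The call in shLMO2-1 held under all 18 alternatives, at adjusted p-values of 8.33e-12 to 0.0129. The ratio of TNC to FN1 counts was 1.31 to 1.55 in control and 0.686 to 0.849 in shLMO2-2, and all 3 shLMO2-1 libraries lay between these ranges. Splice forms of FN1 and TNC were summed in the gene counts and are not separated here.

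**Figure D2:**
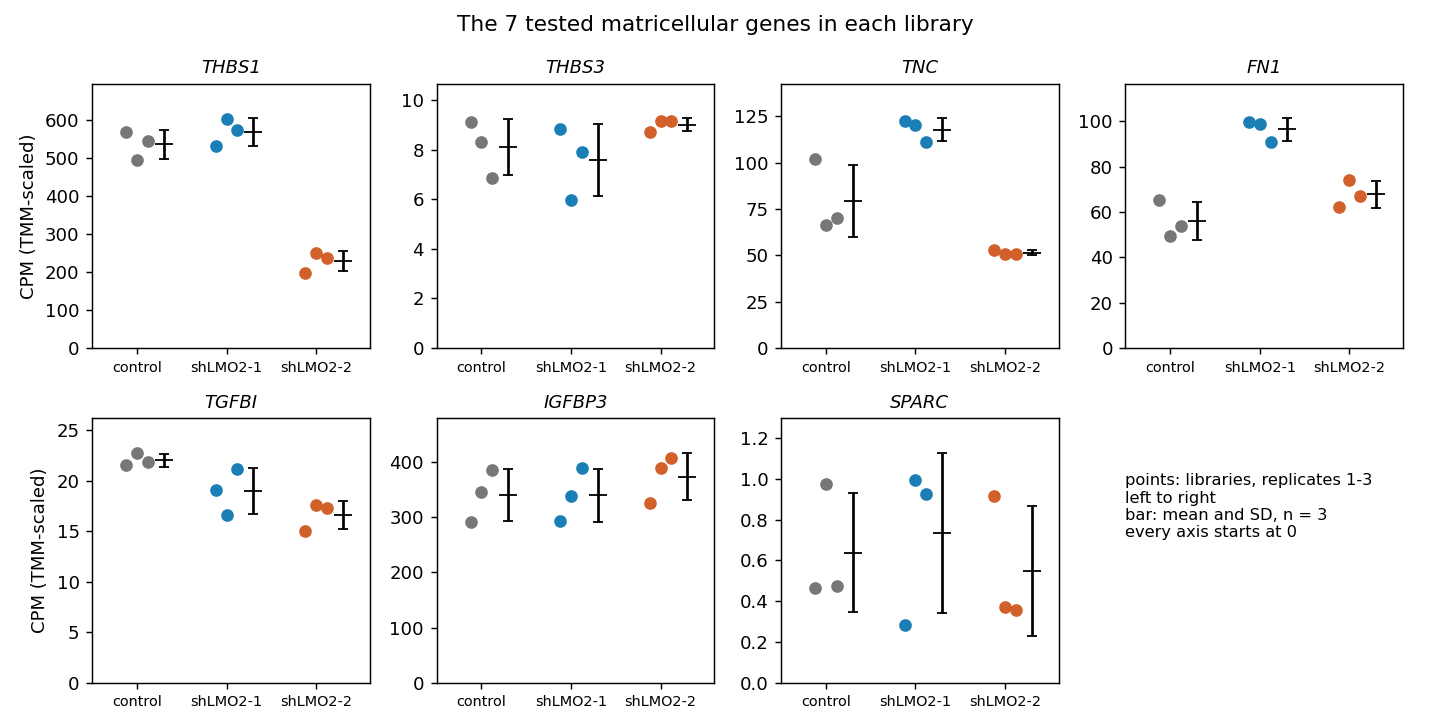
CPM of the 7 tested genes in each of the 9 libraries (points, replicates 1 to 3 from left to right) with mean and SD (n = 3); every axis starts at 0. THBS1 and TNC are lowest in all shLMO2-2 libraries, FN1 is highest in all shLMO2-1 libraries, and THBS3, IGFBP3 and SPARC overlap between groups.

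TGFBI encodes a fasciclin-domain protein that carries an RGD integrin-binding site and is named for its induction by TGF-beta. The gene (ENSG00000120708.16, chromosome 5, 136028895–136063818, plus strand) was at 21.5, 22.8 and 21.8 CPM in control replicates 1 to 3, at 19.1, 16.6 and 21.2 CPM in shLMO2-1, and at 15.05, 17.6 and 17.3 CPM in shLMO2-2. All 6 hairpin libraries lay below all 3 controls, and the hairpins overlapped each other. Over all tested genes, shLMO2-1 lay wholly below control in 14.3% and shLMO2-2 in 14.5%. TGFBI fell by 0.41 on the log2 scale in shLMO2-2 (SE 0.108, adjusted p = 0.0411, edgeR), to 0.755 of control, in a comparison where 8.97% of all tested genes were called, 4.94% as higher and 4.04% as lower. In shLMO2-1 the value was -0.22 (SE 0.109, adjusted p = 0.249, edgeR), and between the hairpins it was -0.19 (SE 0.109, adjusted p = 0.631).

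The fall of TGFBI was close to the threshold. It did not pass with only the groups compared in the fit (adjusted p = 0.0516, edgeR), without control replicate 1 (0.0513), 2 (0.0916) or 3 (0.10), without shLMO2-1 replicate 1 (0.0613), and without shLMO2-2 replicate 1 (0.121), 2 (0.0815) or 3 (0.0902). The log2 fold change stayed between -0.45 and -0.35 throughout. POSTN, periostin, the other fasciclin-domain member, had 0 counts in all 9 libraries. A count of 0 allows up to 3 counts, or 0.130 to 0.198 CPM depending on the library, in counting error only.

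IGFBP3 encodes the main carrier of insulin-like growth factors in blood and binds the cell surface and matrix. The gene (ENSG00000146674.14, chromosome 7, 45912245–45921874, minus strand) was at 291, 344 and 385 CPM in control replicates 1 to 3, at 293, 337 and 388 CPM in shLMO2-1, and at 325, 388 and 406 CPM in shLMO2-2. The groups overlapped throughout. In every group the level rose from replicate 1 to replicate 3, and at each number shLMO2-2 lay above the other groups. The main fit does not use the replicate number. The log2 fold change was -0.00206 (SE 0.125, adjusted p = 0.995, edgeR) in shLMO2-1 and 0.13 (SE 0.125, adjusted p = 0.553) in shLMO2-2. Under the 18 alternatives, the shLMO2-2 value ran from 0.02 to 0.23 and its adjusted p from 0.0894 to 0.922. Between the hairpins it was 0.14 (SE 0.125, adjusted p = 0.799, edgeR), with a 95% interval of -0.17 to 0.44, which leaves out changes of the size of THBS1 and TNC.

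SPARC encodes osteonectin, a collagen-binding protein that loosens adhesion, and was scarcely expressed. It had 8, 19 and 9 counts in control replicates 1 to 3, 5, 17 and 14 counts in shLMO2-1, and 21, 8 and 8 counts in shLMO2-2. The log2 fold changes were 0.18 (SE 0.576) in shLMO2-1 and -0.22 (SE 0.573) in shLMO2-2, with adjusted p-values of 0.893 and 0.853 (edgeR), and -0.40 (SE 0.574, adjusted p = 0.893) between the hairpins. The 95% interval of the last, -1.80 to 1.01, does not leave out a change of 2-fold in either direction. SPOCK1, testican 1, a proteoglycan with a SPARC-type domain, had 0 counts in all 3 controls, 3 counts in shLMO2-1 replicate 1, 4 counts in shLMO2-2 replicate 3 and 0 in the other libraries.

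Apart from THBS1 and TNC, 5 of the other 8 genes were tested. In shLMO2-1 against control 1 was called (FN1, higher), where 8.42% of all genes were called. In shLMO2-2 against control 1 was called (TGFBI, lower), beside 8.97% of all genes. Between the hairpins none passed under edgeR, where 0.768% of all genes did (0.347% higher and 0.422% lower). FN1 and no other had an unadjusted p under 0.05 (0.000469, edgeR). As the share of all genes at this level is not given, nothing is read from this count. DESeq2 called FN1 between the hairpins, and so did edgeR under several of the other settings.

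**Figure D3:**
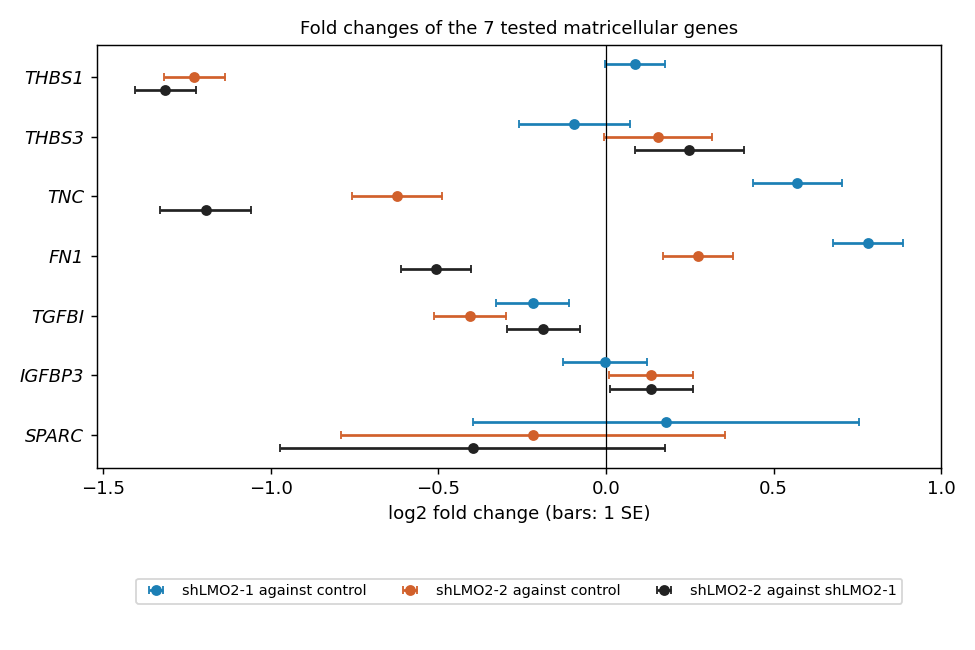
Log2 fold changes of the 7 tested genes for the 3 comparisons, with bars of 1 SE. THBS1 is near 0 in shLMO2-1 and at -1.23 in shLMO2-2, TNC lies on opposite sides of 0, and IGFBP3, THBS3 and SPARC lie within 2 SE of 0 in all comparisons.

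Genes with profiles like those of THBS1 and TNC were looked for among 11030 other genes with a mean of at least 5 CPM. Likeness was the root mean square difference between mean-centred log2 CPM over the 9 libraries. Nearest to THBS1 was LINC01235, a long non-coding RNA, with a difference of 0.182, with 13.2 ± 2.26 CPM (control), 14.3 ± 1.40 CPM (shLMO2-1) and 5.75 ± 0.116 CPM (shLMO2-2; SD, n = 3). DDA1 came next (0.245), at 119 ± 1.23, 124 ± 2.99 and 69.4 ± 1.35 CPM, then DOCK11, an activator of the GTPase CDC42 (0.266), at 8.81 ± 1.18, 7.88 ± 0.738 and 4.76 ± 0.137 CPM. Nearest to TNC was CYYR1 (0.233), at 30.9 ± 2.34, 42.5 ± 1.97 and 21.6 ± 0.263 CPM. P3H2, a collagen prolyl hydroxylase (0.233), was at 8.50 ± 0.731, 11.7 ± 1.66 and 4.95 ± 0.673 CPM, and the metalloproteinase MMP7 (0.235) at 110 ± 4.95, 133 ± 6.34 and 69.9 ± 4.02 CPM. These genes were selected for their likeness, so their fold changes carry no further support.

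Another 35 genes of the matricellular class were listed by role, from the CCN, fibulin, SMOC, osteopontin, galectin and insulin-like growth factor binding protein families. Of these, 20 were tested, and the 15 that were not had at most 12 counts in any library, 4 of them 0 throughout. In shLMO2-1 against control 5 rose and 1 fell, in shLMO2-2 against control 3 rose and 2 fell, and between the hairpins 0 rose and 3 fell (edgeR), beside 8.42%, 8.97% and 0.768% of all genes called. DESeq2 called 5 higher and 3 lower, 3 higher and 3 lower, and 1 higher and 3 lower in these comparisons. No DESeq2 share of all genes is set beside these counts, so nothing is read from them. The median log2 fold change of the list was -0.04, -0.08 and -0.26 in these comparisons, beside 0.000913, -0.000241 and -0.00061 over all tested genes. Both comparisons with control share the control libraries, and 4.64% of all tested genes were called in the same direction in both.

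Among them, CTGF (CCN2), a CCN protein that binds integrins and is induced by mechanical tension and TGF-beta, fell in both hairpins. It was at 35.0, 28.3 and 27.2 CPM in control replicates 1 to 3, at 12.9, 14.2 and 13.5 CPM in shLMO2-1, and at 7.91, 8.49 and 8.58 CPM in shLMO2-2, with no overlap between any groups. Over all tested genes, shLMO2-1 lay wholly below control in 14.3%, shLMO2-2 wholly below control in 14.5% and wholly below shLMO2-1 in 9.12%. The log2 fold change of CTGF was -1.16 (SE 0.114, adjusted p = 0.000258, edgeR) in shLMO2-1 and -1.85 (SE 0.116, adjusted p = 1.66e-05) in shLMO2-2, and both calls held under all 18 alternatives. Between the hairpins it was -0.70 (SE 0.119, adjusted p = 0.0247, edgeR), a call lost when any of the 6 hairpin libraries was left out (up to 0.142). Its close relative CYR61 (CCN1) averaged 251 CPM (control), 254 CPM (shLMO2-1) and 221 CPM (shLMO2-2) and was not called in any comparison (adjusted p = 0.181 or more, edgeR), a gene named after its values were seen. It was named after its values were seen. WISP2 (CCN5), a CCN protein without the C-terminal knot, was at 5, 16 and 10 counts in control, 11, 9 and 5 in shLMO2-1, and 34, 40 and 51 in shLMO2-2, a rise of 1.75 on the log2 scale (SE 0.405, adjusted p = 0.0241, edgeR). It did not pass without control replicates 1 or 3 or shLMO2-2 replicate 2 or 3 (up to 0.0947). Between the hairpins WISP2 was at 1.90 (SE 0.417, adjusted p = 0.0744, edgeR), and it passed under DESeq2 (1.92, adjusted p = 0.0139), with no filter on low counts (0.00867), with only the hairpin groups in the fit (0.0412) and without control replicate 1 (0.0367).

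Of insulin-like growth factor binding proteins, 4 further ones were tested. IGFBP2, IGFBP4 and IGFBP5 were called in shLMO2-1 against control, beside 8.42% of all tested genes. IGFBP2 was called in shLMO2-2 against control, beside 8.97%, and IGFBP4 and IGFBP5 between the hairpins, beside 0.768%. IGFBP6 was called in none. With 4 genes, nothing is read about the family. Their difference from IGFBP3 was not tested. IGFBP2 was at 15.8, 19.8 and 15.3 CPM in control replicates 1 to 3, at 36.6, 32.3 and 40.7 CPM in shLMO2-1, and at 32.4, 24.2 and 28.7 CPM in shLMO2-2. It rose by 1.11 (SE 0.139, adjusted p = 0.00106, edgeR) in shLMO2-1 and by 0.75 (SE 0.138, adjusted p = 0.00897) in shLMO2-2 on the log2 scale. IGFBP5 was at 33.5, 37.9 and 46.6 CPM in control, 66.3, 73.0 and 80.8 CPM in shLMO2-1, and 44.7, 50.5 and 41.7 CPM in shLMO2-2, so that only shLMO2-1 stood apart. Over all tested genes, shLMO2-1 lay wholly above control in 14%, and shLMO2-2 wholly below shLMO2-1 in 9.12%. IGFBP5 rose by 0.90 in shLMO2-1 (SE 0.124, adjusted p = 0.00185, edgeR), was at 0.21 in shLMO2-2 (adjusted p = 0.321), and differed by -0.68 between the hairpins (adjusted p = 0.0319). IGFBP4, averaging 100 ± 9.27, 131 ± 11.5 and 94.8 ± 5.65 CPM in the 3 groups, rose by 0.39 in shLMO2-1 (adjusted p = 0.0229, edgeR) and differed by -0.46 between the hairpins (adjusted p = 0.0388). The calls of IGFBP4 and IGFBP5 between the hairpins were lost when any of the 6 hairpin libraries was left out (up to 0.177 and 0.144), and that of IGFBP4 also without control replicate 3 or with upper-quartile scaling. In shLMO2-1, IGFBP4 did not pass without control replicate 3, shLMO2-1 replicate 2 or shLMO2-1 replicate 3, or with only the groups compared (up to 0.087).

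LGALS1, galectin 1, a lectin that binds fibronectin and integrins, was at 14.3, 19.3 and 15.5 CPM in control replicates 1 to 3, at 31.7, 33.5 and 39.5 CPM in shLMO2-1, and at 34.3, 28.7 and 37.0 CPM in shLMO2-2. All 6 hairpin libraries lay above all 3 controls. Over all tested genes, shLMO2-1 lay wholly above control in 14% and shLMO2-2 in 15.3%. It rose by 1.09 in shLMO2-1 (SE 0.139, adjusted p = 0.00108, edgeR) and by 1.02 in shLMO2-2 (SE 0.138, adjusted p = 0.00186), under all 18 alternatives. The remaining calls of this list were named after their values were seen. FBLN1, fibulin 1, a matrix protein that binds fibronectin, rose by 0.40 in shLMO2-1 (adjusted p = 0.0274, edgeR), and FSTL1, a secreted SPARC-family protein, fell by 0.87 in shLMO2-2 (adjusted p = 0.029). Both calls were lost when libraries were left out: FBLN1 without control replicate 3 or shLMO2-1 replicates 2 or 3, and also with only the groups compared (up to 0.0965), and FSTL1 without any of the 6 libraries of its comparison (up to 0.0973).

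Receptors through which these proteins act were listed as 22 genes, mostly integrins, syndecans and scavenger receptors, of which 16 were tested. In shLMO2-1 against control 2 rose and 1 fell, in shLMO2-2 against control 1 rose and 0 fell, and 0 passed between the hairpins (edgeR). Over all tested genes, 8.42%, 8.97% and 0.768% were called in these comparisons. Unadjusted p-values under 0.05 were found for 7, 5 and 3 receptors in these comparisons. The share of all genes at this level is not given, so nothing is read from these counts. DESeq2 called 3 higher and 3 lower, 1 higher and 2 lower, and 0 higher and 2 lower, and limma-voom the same counts as edgeR. Without control replicate 1 edgeR called 3 higher and 2 lower, 2 higher and 0 lower, and 0 higher and 2 lower. No share of all genes is set beside the counts of these alternatives, so nothing is read from them. The medians were -0.02, 0.01 and 0.04. ITGB5, the integrin beta chain of the vitronectin receptor, rose from 101, 113 and 110 CPM in control replicates 1 to 3 to 178, 176 and 177 CPM in shLMO2-1 and 145, 151 and 156 CPM in shLMO2-2. The rise was 0.72 on the log2 scale (SE 0.0616, adjusted p = 0.000111, edgeR) and 0.48 (SE 0.0614, adjusted p = 0.00139), and both held under all 18 alternatives. Its partner chain ITGAV, which averaged 539 ± 49.6 CPM (control), 426 ± 24.4 CPM (shLMO2-1) and 456 ± 4.66 CPM (shLMO2-2; SD, n = 3), fell by 0.34 in shLMO2-1 (adjusted p = 0.0151, edgeR), a call lost without shLMO2-1 replicate 3 (0.0648). In shLMO2-2 ITGAV was at -0.24 (adjusted p = 0.0592, edgeR) and passed with totals alone, either other filter, DESeq2 or the replicate block (down to 0.0215).

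LRP1, the endocytic receptor that clears thrombospondin 1, averaged 16.3 ± 2.58 CPM (control), 22.9 ± 1.39 CPM (shLMO2-1) and 16.6 ± 0.467 CPM (shLMO2-2), and rose by 0.50 in shLMO2-1 (adjusted p = 0.0262, edgeR). It did not pass without control replicates 2 or 3, without any shLMO2-1 library, or with only the groups compared (up to 0.108). Receptors that were not called are named after their values were seen. The thrombospondin receptor CD47 averaged 152 CPM (control), 131 CPM (shLMO2-1) and 135 CPM (shLMO2-2), with adjusted p = 0.0606 in shLMO2-1 (edgeR). The other thrombospondin receptor, CD36, had at most 12 counts in a library and was not tested. ITGB1, the beta chain of the main fibronectin receptor, averaged 356, 370 and 359 CPM in the same order, and its partner ITGA5 averaged 6.11, 6.11 and 6.08 CPM, with neither called.

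**Figure D4:**
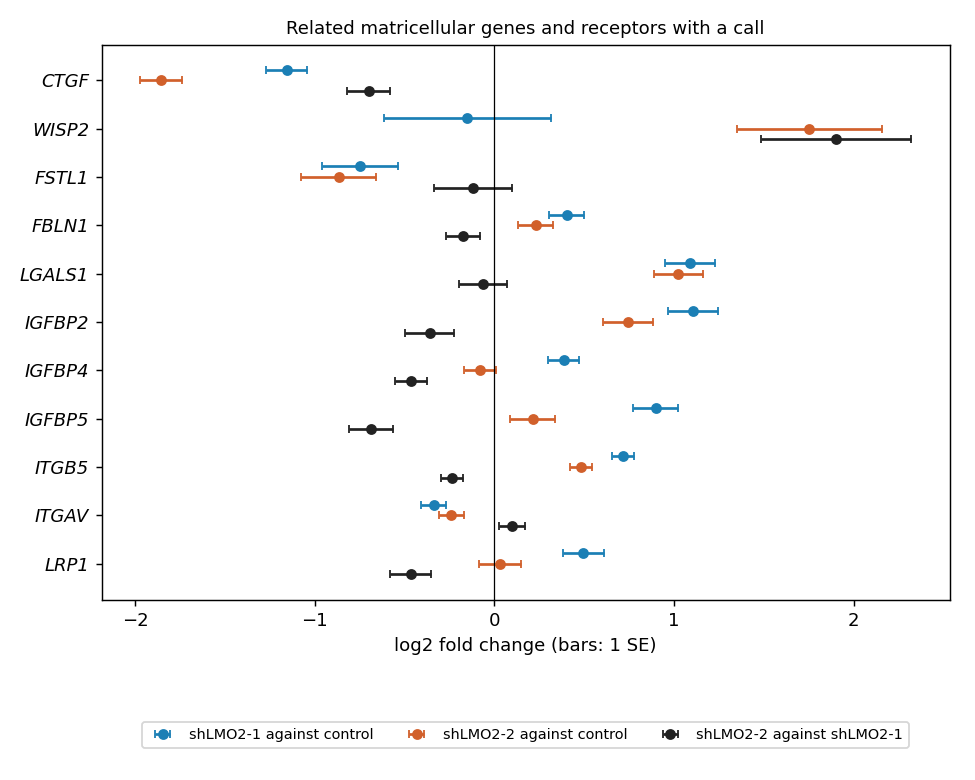
Log2 fold changes, with bars of 1 SE, of the 8 further matricellular genes and 3 receptors called in at least 1 comparison. CTGF lies below 0 in all 3 comparisons, LGALS1, IGFBP2 and ITGB5 lie above 0 in both hairpins, and IGFBP4, IGFBP5 and LRP1 lie above 0 in shLMO2-1 and closer to 0 in shLMO2-2.

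Genes of latent TGF-beta, which thrombospondin 1 can activate and which induces TGFBI and CTGF, were listed as 12 genes, and 11 were tested. None was called in any comparison under edgeR, beside 8.42%, 8.97% and 0.768% of all tested genes. An unadjusted p under 0.05 was found for 5, 3 and 2 genes for shLMO2-1 against control, shLMO2-2 against control and shLMO2-2 against shLMO2-1. The share of all genes at this level is not given, so nothing is read from these counts. DESeq2 and limma-voom each called 2 as higher in shLMO2-2 against control and 0 in the other comparisons. Without control replicate 1 edgeR called 1, 2 and 1 as higher in the 3 comparisons. No share of all genes is set beside the counts of these alternatives, so nothing is read from them. The medians were 0.16, 0.12 and -0.05 in the same order. TGFB2, the ligand with the highest counts here, averaged 220.1 CPM (control), 205 CPM (shLMO2-1) and 179.5 CPM (shLMO2-2), and TGFB1 averaged 32.2, 39.3 and 38.0 CPM. These genes and LTBP2 were named after their values were seen. LTBP2, a member of the latent TGF-beta binding protein family, came nearest to the threshold, with a value of 1.14 in shLMO2-2 (adjusted p = 0.0529, edgeR).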

How the data were processed

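The data were RNA-sequencing libraries of poly(A)-selected RNA from MDA-MB-468 cells, made with the NEBNext Ultra II kit per the labels' protocols. The authors deposited estimated counts per gene symbol, 11.7% to 12.8% of them not whole numbers in a library. The submitters' processing notes name Salmon 0.12, DESeq2 1.22.2 and the build GRCh38.p12. The annotation and the use of strand are not given in the sources used here, and reads shared by overlapping or similar genes may be divided between them. All 56809 symbols are in GENCODE 29 (GRCh38), from which coordinates and lengths were taken by symbol.

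Estimated counts were rounded. Genes were kept by filterByExpr (minimum count 10, minimum total 15) and LMO2 was added back, giving 14709 genes with 99.9% of the counts. All 9 libraries entered a quasi-likelihood fit in edgeR 4.0.16 (R 4.3.3) with TMM scaling, a factor of 3 groups and no covariate. P-values were adjusted by Benjamini-Hochberg over all tested genes and called under 0.05. Every adjusted p is from this test unless another tool is named. Standard errors were derived from the fold change and its F statistic, and 95% intervals used 6 degrees of freedom. On simulated counts for shLMO2-2 against shLMO2-1 over 14510 genes, 84% of 2-fold and 98% of 4-fold changes among 200 changed genes were recovered, and 19 unchanged genes were called. The changed genes were drawn only from those above a floor of expected counts, so these rates do not cover scarce genes such as SPARC.

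Alternatives used DESeq2 1.42.0, limma-voom 3.58.1, other scalings and filters, only the groups compared, a replicate block and leaving out each library. For LMO2 these were added after seeing the data. Replicates of every group differed beyond counting noise (chi-square per gene 4.93 to 27.1), and each was counted. Members, gene lists and tests were chosen with earlier results of these data known. Named from each related list were up to 6 called genes with the smallest p, and for THBS1 and TNC the 3 nearest profiles. Motifs and the promoter windows shown were chosen after the values were seen. Counting error alone underlies the limit given for counts of 0, as no molecular identifiers are recorded.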

Additional observations from a re-analysis of the deposited data

How the results depend on the processing

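The fold changes of THBS1 and TNC kept their direction under all 18 alternatives in each comparison. Both genes were picked from the same data, so this describes the fits and adds no support. For THBS1, leaving out libraries gave 0.03 to 0.13 in shLMO2-1. For TNC it gave 0.46 to 0.78 in shLMO2-1 and -0.74 to -0.41 in shLMO2-2. The number of genes called, 1239 in shLMO2-1, 1320 in shLMO2-2 and 113 between the hairpins, moved by over 1.5 times under the settings that follow. With only the groups compared it was 695, 776 and 189. With the replicate block it was 2214, 2377 and 257. Same-numbered libraries had correlated deviations in replicates 1 and 3 (0.14 to 0.30) but not in replicate 2 (-0.06 to 0.05). Correlations over 0.1 were found in 6 of 9 same-numbered pairs. Among pairs of different number, 2 of 18 were over 0.1, with a range of -0.31 to 0.18. The labels state no pairing, so the main fit held none. Whether the numbers mark a shared factor was not tested. Under the block FN1 passed between the hairpins (-0.51, adjusted p = 0.0256, edgeR). Between the hairpins, no filter on low counts gave 378 genes and DESeq2 316. Leaving out a library gave 546 to 1397 genes in shLMO2-1, with 678, 578 and 546 when shLMO2-1 replicates 1 to 3 were dropped and 649 when control replicate 3 was. It gave 494 to 1243 in shLMO2-2, with 739, 494 and 514 when shLMO2-2 replicates 1 to 3 were dropped and 640 when control replicate 3 was. Between the hairpins it gave 38 to 239, with 239 and 75 when control replicate 1 or control replicate 3 was dropped, 54, 38 and 72 when shLMO2-1 replicates 1 to 3 were, and 62, 40 and 49 when shLMO2-2 replicates 1 to 3 were. Scaling by totals alone turned the balance of 668 higher and 571 lower genes in shLMO2-1 to 561 and 781, and of 726 and 594 in shLMO2-2 to 568 and 833. For values that passed no test, signs turned without single libraries: THBS3 in shLMO2-1 ran from -0.22 to 0.048, SPARC in shLMO2-1 ran from -0.12 to 0.62, SPARC in shLMO2-2 ran from -0.81 to 0.23, IGFBP3 in shLMO2-1 ran from -0.11 to 0.10, and LMO2 between the hairpins ran from -1.002 to 0.45. With the median length of coding transcripts, 5 of 10 genes kept their place in the order of levels, and with the longest transcript 10 did. The cause of these changes was not tested. For THBS2, SPOCK1, POSTN and SPARC, low counts limit any comparison.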
